A study of Mus musculus with 12 samples.

Results

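Messenger RNA was compared at baseline between the control cells of the 2 mouse lines of the study, as 4 of its 12 RNA sequencing libraries. They are the Mock libraries, 2 labelled DC2.4 and 2 labelled 4T1, chosen by their labels alone. DC2.4 is a dendritic cell line that was made from mouse bone marrow with retroviruses carrying GM-CSF and oncogenes, myc among them, and 4T1 is a mammary carcinoma line from a BALB/c mouse. The labels call both lines wild type and give all 4 libraries an mRNA for the fluorescent protein EGFP, delivered with a transfection reagent or in lipid nanoparticles, so that the baseline is that of mRNA-treated cells. The other 8 libraries are 4 of the same lines given mRNA for uniSTING, a mimic of the adaptor STING, and 4 labelled DC2.4 that were incubated for 24 h with vesicles from 4T1 cells given Mock or uniSTING mRNA (EXOmock and EXOuniSTING). Each group has a preparation 1 and a preparation 2. Whether a number stands for a culture of its own is not said by the labels. The p-values therefore reflect how far these libraries differ from each other, a spread that could be technical.

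Epithelial cells are joined into sheets by E-cadherin junctions, tight junctions and desmosomes, and carry keratins as intermediate filaments. Myeloid cells, among them macrophages and dendritic cells, lack these structures. They depend on the transcription factor PU.1, carry the phosphatase CD45 and leukocyte integrins, take up particles and sense microbes through Toll-like receptors and cytosolic receptors. Dendritic cells present antigen on MHC class II, and genes such as Flt3, Zbtb46, Xcr1 and Clec9a help to tell them and their subsets from macrophages.

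The marker genes ran against the labels. Below, a gene's level is given in counts-per-million (CPM), first for preparations 1 and 2 labelled DC2.4 and then, after "against", for preparations 1 and 2 labelled 4T1. Epcam, an adhesion molecule of epithelial cells (chr17:87943407-87958557, plus strand, GRCm39), stood at 288 and 286 CPM against 0.28 and 0 CPM. Krt8, a keratin of simple epithelia (chr15:101905133-101912917, minus strand), stood at 1269 and 1285 CPM against 0.839 and 0.0793 CPM. Both were high in each library labelled DC2.4 and near 0 in each library labelled 4T1. Ptprc, the gene of CD45 (chr1:137990599-138103446, minus strand), was at 0.457 and 0 CPM against 310 and 312 CPM. Spi1, the gene of PU.1 (chr2:90912735-90946101, plus strand), was at 0.0571 and 0.0907 CPM against 190 and 191 CPM. These leukocyte genes were near 0 in each library labelled DC2.4 and high in each labelled 4T1. On the log2 scale the differences, as DC2.4 label minus 4T1 label, were 11.27 ± 0.209 (SE, adjusted p = 9.04e-16) for Epcam, 11.71 ± 0.199 (SE, adjusted p = 3.7e-16) for Krt8 and -10.47 ± 0.21 (SE, adjusted p = 2.19e-15) for Ptprc. For Spi1, with 3 counts in the lower group, the libraries labelled 4T1 had a count ratio of 2508 (95% counting interval 858 to 12165).

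Whole marker panels gave the same picture. The 9 epithelial markers summed to 4119 and 4148 CPM labelled DC2.4 against 3.13 and 0.159 CPM labelled 4T1. In preparation 2 labelled 4T1, 6 of the 9 were at 0. The 10 myeloid markers summed to 38.1 and 33.3 CPM labelled DC2.4 against 4341 and 4378 CPM labelled 4T1. The 8 markers of dendritic cells and their subsets reached only 4.11 and 3.99 CPM labelled DC2.4 against 36.1 and 39.5 CPM labelled 4T1. The libraries with myeloid markers thus held few transcripts of these 8 genes. The 4 lymphoid markers did not pass 0.168 CPM in sum in any of the 4 libraries. For the rest of the text the libraries labelled DC2.4 are therefore those with epithelial markers, and the libraries labelled 4T1 those with myeloid markers; both names are kept as labels only.

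**Figure D1:**
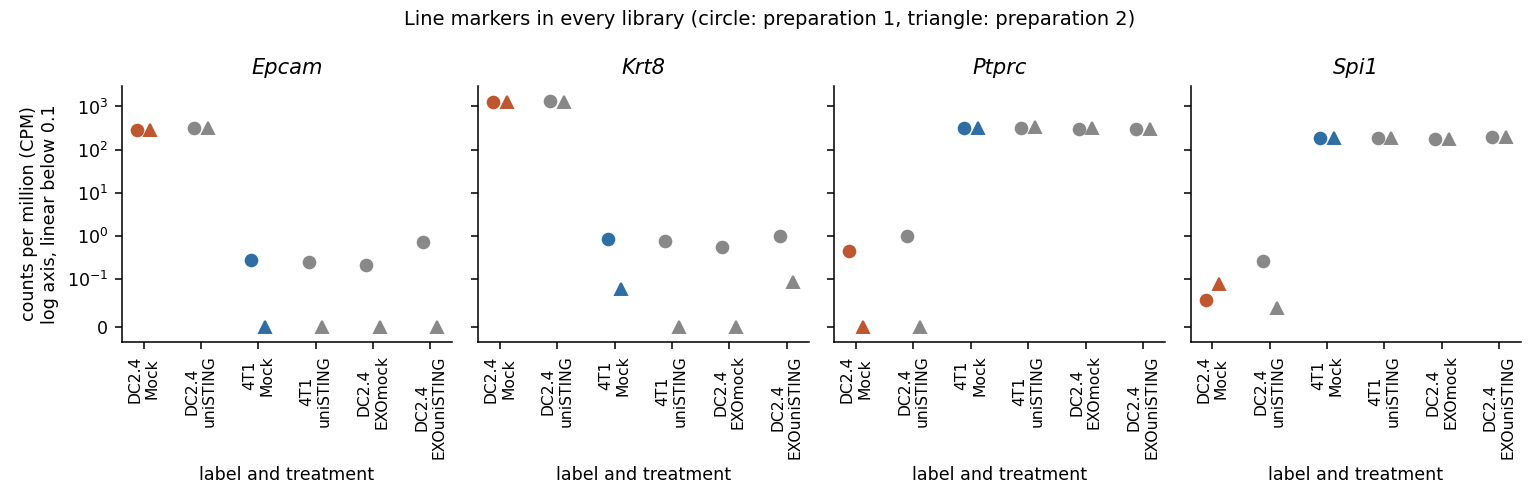
CPM of Epcam, Krt8, Ptprc and Spi1 in each of the 12 libraries by label and treatment, on a log axis that is linear below 0.1 CPM; circles are preparation 1 and triangles preparation 2. Only the Mock and uniSTING libraries labelled DC2.4 are high in Epcam and Krt8, and the other 8 libraries (Mock and uniSTING labelled 4T1, EXOmock and EXOuniSTING labelled DC2.4) are high in Ptprc and Spi1.

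The vesicle-treated libraries carry the DC2.4 label too and were compared with both Mock groups. Between the Mock and the EXOmock libraries, both labelled DC2.4, 12322 of 14863 genes tested passed (82.9%), with 1145 at least 16-fold higher and 1002 at least 16-fold lower in the Mock libraries (7.70% and 6.74%). Between the Mock libraries labelled 4T1 and the EXOmock libraries labelled DC2.4, 7984 genes passed (53.7%), with 8 and 30 past 16-fold (0.0538% and 0.202%). More genes were past 16-fold between the groups that share the DC2.4 label than between the groups with different labels. These comparisons share libraries with the main one. In the first the label was shared and marker content differed, and in the second the reverse. Treatment differed in both, and its part was not tested.

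The 4 libraries held 17502694 and 22039546 counts labelled DC2.4 and 17878016 and 25213743 labelled 4T1, with 17604 to 18152 genes detected. The floor of 3 counts lay between 0.119 and 0.171 CPM. Mitochondrial genes took 1.34 and 1.31% of counts against 2.28 and 2.26%. Preparation 1 held transcripts of other tissues, some of them well above the floor. Ins2, an insulin gene, had 1226 counts in preparation 1 labelled DC2.4 and 854 in preparation 1 labelled 4T1, and Sftpc, a surfactant gene of the lung, had 421 and 714, while both were at 0 in preparation 2 of both labels. Of the 1207 genes at least 16-fold higher labelled DC2.4, 322 had counts labelled 4T1 in preparation 1 alone and 74 in preparation 2 alone, and of the 961 on the other side, 232 and 60. The part of such transcripts in the lowest values was not tested. Folds against values near 0 varied between preparations: the CPM ratio of Krt8 was 1512 in preparation 1 and 16205 in preparation 2.

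Promoters of the markers Epcam, Krt8 and Ptprc, and of Krt18, are shown because the data divide so sharply on them. Spi1 had no listed promoter. The sequences are from RefSeq, for the 250 bases before the annotated start, in GRCm38.p6 coordinates and not those of the counts. Ptprc had 2 listed starts, and the one farthest upstream was used. Capitals mark 2 motifs searched on both strands: the E-box CACCTG or CAGGTG, which repressors of epithelial genes such as SNAI1 and ZEB1 are known to bind, and the ETS motif AGGAAGT or ACTTCCT, close to what PU.1 is known to bind. Neither motif overlaps the other in letters.
Epcam, chr17:87635729-87635978, plus strand: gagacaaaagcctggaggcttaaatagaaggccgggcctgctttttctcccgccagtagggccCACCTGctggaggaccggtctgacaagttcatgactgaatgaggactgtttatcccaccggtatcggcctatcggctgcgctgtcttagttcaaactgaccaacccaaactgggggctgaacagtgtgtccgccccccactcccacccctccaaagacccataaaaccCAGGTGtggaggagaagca
Krt8, chr15:102004343-102004592, minus strand: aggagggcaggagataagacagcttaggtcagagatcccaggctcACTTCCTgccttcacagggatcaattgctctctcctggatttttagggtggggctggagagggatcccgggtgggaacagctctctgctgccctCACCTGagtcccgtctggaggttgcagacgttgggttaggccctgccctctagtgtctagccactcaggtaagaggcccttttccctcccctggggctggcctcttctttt
Krt18, chr15:102027966-102028215, plus strand: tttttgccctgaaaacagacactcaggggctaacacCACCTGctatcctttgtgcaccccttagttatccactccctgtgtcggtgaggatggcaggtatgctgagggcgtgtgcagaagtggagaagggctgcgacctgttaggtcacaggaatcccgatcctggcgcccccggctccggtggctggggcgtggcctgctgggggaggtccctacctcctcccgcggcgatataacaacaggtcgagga
Ptprc, chr1:138175306-138175555, minus strand: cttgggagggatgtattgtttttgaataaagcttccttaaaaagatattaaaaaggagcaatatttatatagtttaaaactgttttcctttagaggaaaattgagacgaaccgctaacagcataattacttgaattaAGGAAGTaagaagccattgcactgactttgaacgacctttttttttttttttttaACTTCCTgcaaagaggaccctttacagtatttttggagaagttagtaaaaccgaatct
The Epcam promoter held the E-box at 187 to 182 and at 19 to 14 bases before the start, Krt8 at 111 to 106 and Krt18 at 214 to 209. The Ptprc promoter held the ETS motif at 113 to 107 and at 58 to 52 bases before the start, and Krt8 held one at 205 to 199. A match is a description of letters and not a bound site. Over all 32851 promoters of that length in the table, 17.2% held the E-box and 7.69% the ETS motif, and over those of the genes tested, 15.7% and 7.63%. Among genes at least 16-fold higher under the DC2.4 label, 793 of 1204 with a symbol had a listed promoter; the E-box stood in 24.1% of their 1056 promoters and the ETS motif in 7.10%. Among genes at least 16-fold higher under the 4T1 label, 669 of 961 had one, and the 2 motifs stood in 17.4% and 14.7% of 862 promoters. These shares were not tested.

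The lines differed at most genes. Of 14863 genes tested, 12329 passed at an adjusted p under 0.05 (83.0%), 6304 higher labelled DC2.4 (42.4%) and 6025 higher labelled 4T1 (40.5%), with a median log2 difference of 0.03 over all genes. With so many genes called, size matters more than passing. At least 2-fold differences were seen for 3281 genes labelled DC2.4 (22.1%) and 3510 labelled 4T1 (23.6%), and at least 16-fold ones for 1207 (8.12%) and 961 (6.47%). These shares are over the genes tested, whereas gene lists below also count members too low to test. Lists given below without a share are to be read beside the 22.1% and 23.6% at 2-fold. Some genes had a clear level in one line and little in the other: 779 genes had at least 5 CPM labelled DC2.4 and under 1 CPM labelled 4T1, and 584 the reverse. The genes 16-fold higher labelled DC2.4 held 6.9 to 6.94% of counts there and at most 0.0611% labelled 4T1. The genes 16-fold higher labelled 4T1 held 7.51% there and at most 0.0855% labelled DC2.4.

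**Figure D2:**
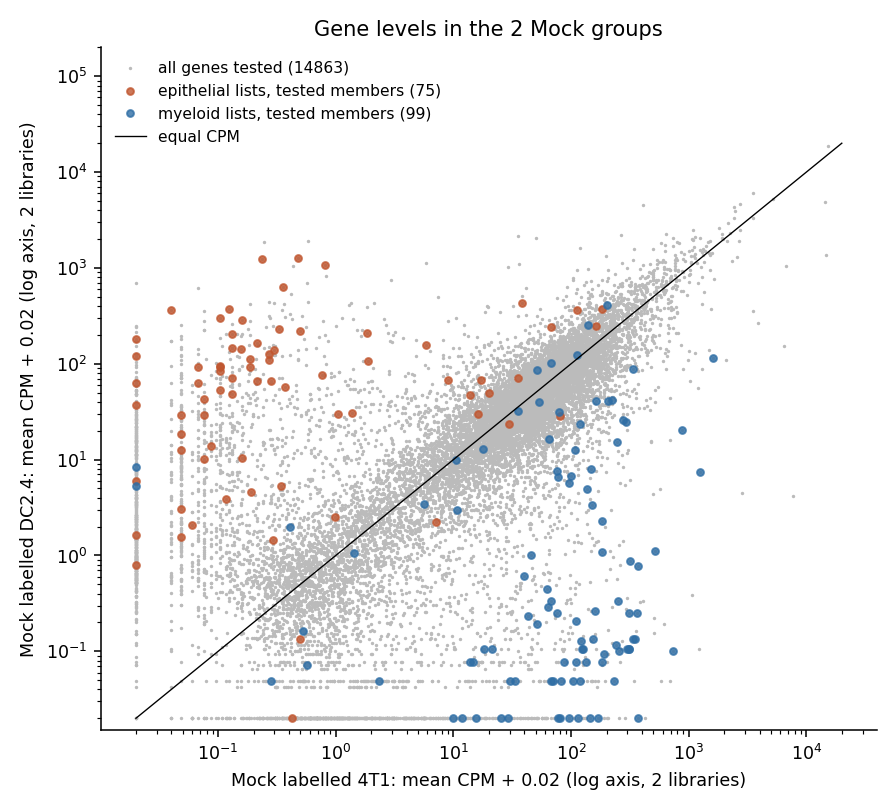
Mean CPM plus 0.02 of each of 14863 genes tested in the 2 Mock libraries labelled 4T1 (x axis) and the 2 labelled DC2.4 (y axis), both on log axes, with tested members of 3 epithelial lists in orange and of 3 myeloid lists in blue; the line marks equal CPM. Most orange points lie far above the line with under 1 CPM labelled 4T1, and most blue points far below it.

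The 12 largest fitted differences toward the DC2.4 label among genes of at least 50 CPM included Fbln2, Col8a1, Nt5e, Ankrd1, Krt14, Efnb2, Ddah1, Fgfbp1, Tmprss11e, Fermt1 and Morc4. All 12 were at 0 counts in both libraries labelled 4T1. The fitted difference has no bound for such genes, so this ranking favours them. With genes at 0 set to their bound, Lad1 (log2 difference 13.65) and Fscn1 (13.58) stood above Col8a1 (11.79) and Morc4 (10.56). Fbln2, a matrix fibulin, was at 689 and 697 CPM against 0 and 0 CPM (at least 9962-fold). Krt14, the keratin of basal epithelial cells, was at 179 and 180 CPM against 0 and 0 CPM (at least 2578-fold). Nt5e, the surface enzyme CD73 that makes adenosine, was at 240 and 245 CPM against 0 and 0 CPM (at least 3491-fold). The set holds basement membrane and matrix genes (Fbln2, Col8a1), the adhesion gene Fermt1 and Ankrd1, a known target of the coactivator YAP, at 214 and 219 CPM against 0 and 0 CPM (at least 3111-fold).

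The 12 largest fitted differences toward the 4T1 label were Rasgrp3, Adgre1, Trem2, Rassf4, Tlr13, Ptgir, Spink5, Hspb7, Vav1, Syk, Cd200r4 and Plek. Except for Plek, with 1 count, they were at 0 counts in both libraries labelled DC2.4, which the same ranking favours. With genes at 0 set to their bound, Cybb (log2 difference -13.79) and Laptm5 (-13.06) differed more than Rassf4 (-11.71) and Cd200r4 (-10.78). Adgre1, the macrophage antigen F4/80, was at 0 and 0 CPM against 371 and 373 CPM (at least 4910-fold). Trem2, a lipid receptor of macrophages, was at 0 and 0 CPM against 291 and 284 CPM (at least 3782-fold). Syk, the kinase behind Fc and lectin receptors, was at 0 and 0 CPM against 145 and 145 CPM (at least 1911-fold), and Vav1, its exchange factor partner, at 0 and 0 CPM against 168 and 170 CPM (at least 2226-fold). Rasgrp3, a Ras activator, was at 0 and 0 CPM against 421 and 430 CPM (at least 5624-fold). Spink5 and Hspb7 are better known from skin and muscle. Spink5 was at 0 and 0 CPM against 190 and 191 CPM and Hspb7 at 0 and 0 CPM against 173 and 173 CPM.

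**Figure D3:**
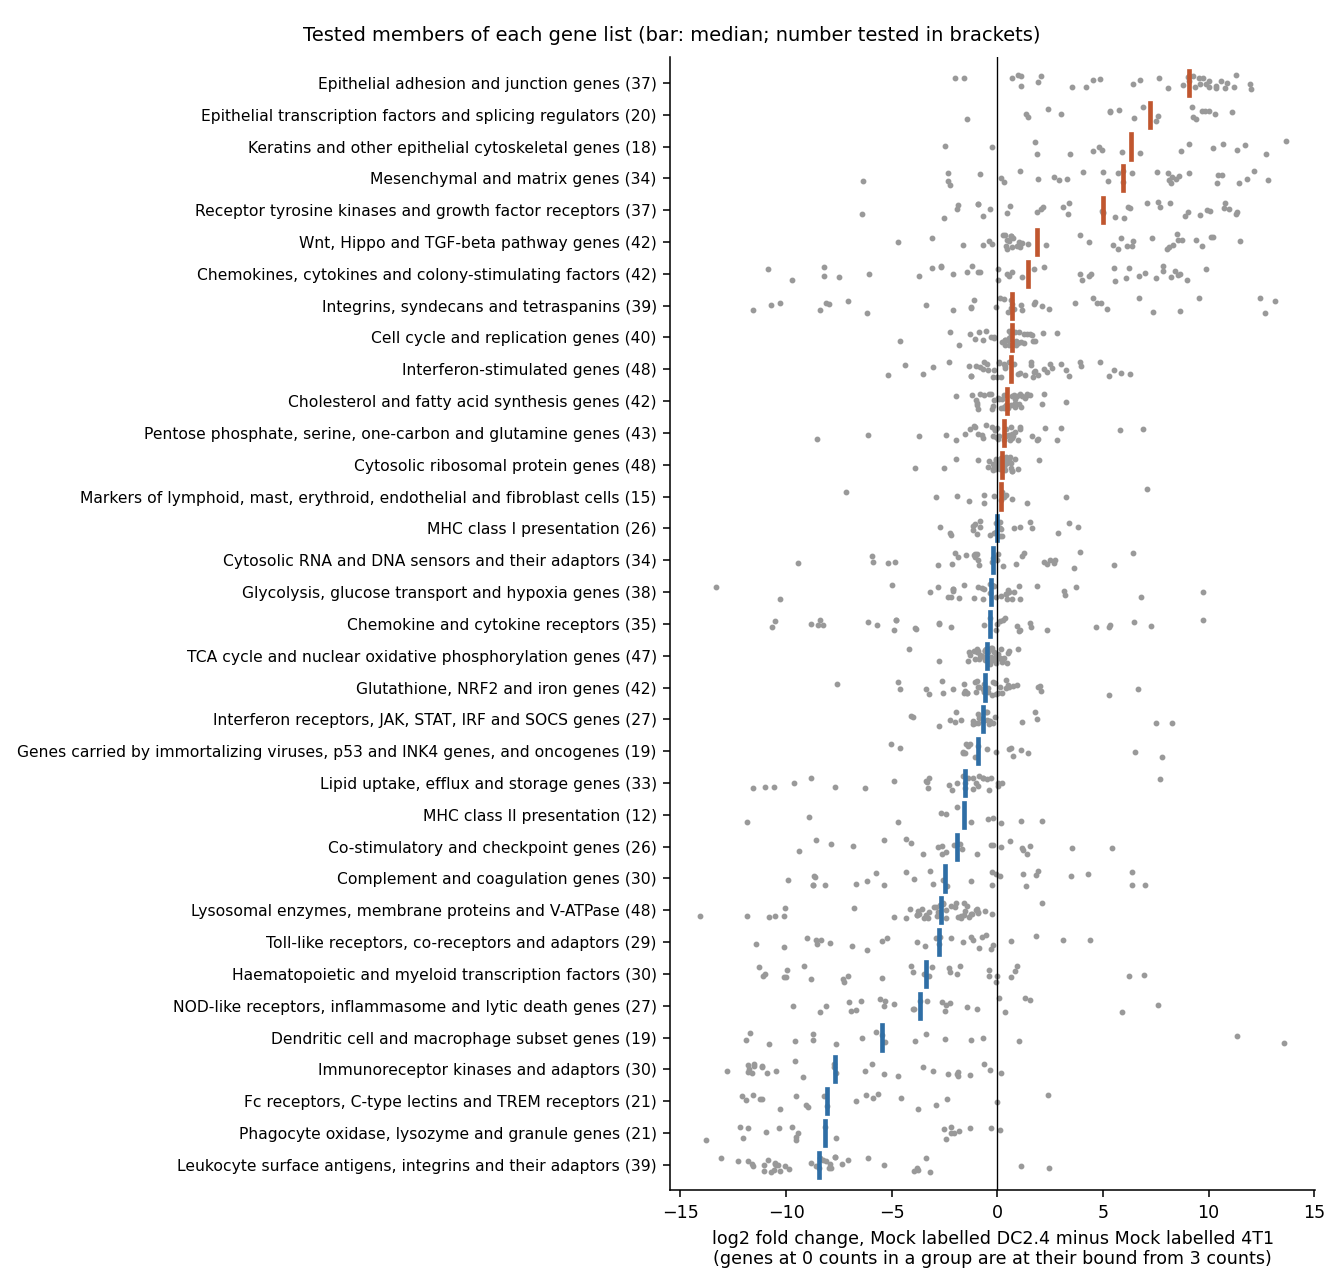
Log2 fold change of each tested member (points) of 35 gene lists, Mock labelled DC2.4 minus Mock labelled 4T1, with the median as a bar (orange above 0, blue below) and the number tested in brackets; genes at 0 counts in a group are at their bound from 3 counts. Epithelial and matrix lists lie to the right, leukocyte, phagocyte and lysosome lists to the left, and ribosomal, class I presentation and respiratory lists near 0.

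The epithelial program was broad. Of 38 adhesion and junction genes, 33 were at least 2-fold higher labelled DC2.4 and 1, the tight junction gene Tjp3, was at least 2-fold higher labelled 4T1; the median log2 difference of the 37 tested was 9.06 with genes at 0 set to their bound, against 0.03 for all genes. Cdh1, the gene of E-cadherin, was at 635 and 624 CPM against 0.671 and 0 CPM (2326-fold). Cldn4, a tight junction claudin, was at 293 and 301 CPM against 0.168 and 0 CPM (count ratio 4278, 95% interval 1464 to 20748). Gja1, the connexin found in many cell types, was split as well, at 373 and 378 CPM against 0.168 and 0.0397 CPM (3984-fold). The desmosome gene Dsp was at 105 and 112 CPM against 0.503 and 0 CPM. The catenins that tie cadherins to actin, which other cells use as well, differed less: Ctnna1 was at 377 and 376 CPM against 185 and 181 CPM (2.17-fold). Tjp3 was at 2.69 and 1.77 CPM against 7.5 and 6.66 CPM.

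Keratins were those of simple epithelium with some basal ones. Of 25 keratin and epithelial cytoskeleton genes, 16 were at least 2-fold higher labelled DC2.4 and 1, Krt23, higher labelled 4T1. Per length, Krt8, Krt18 and Krt7 led the keratins labelled DC2.4, at 2000, 2625 and 463 transcripts-per-million (TPM, counts scaled by exon length, mean of 2 libraries). Krt18, the partner of Krt8, was at 1226 and 1235 CPM against 0.392 and 0.0397 CPM (6747-fold). Krt14 was at 313 TPM, while its usual partner Krt5 had at most 1 count in any of the 4 libraries. Lad1, an anchoring filament gene, was at 359 and 363 CPM against 0 and 0.0397 CPM (count ratio 15561, 95% interval 2792 to 614660). Ezr, the gene of ezrin in microvilli, was present in both lines at 365 and 371 CPM against 112 and 112 CPM (3.46-fold).

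The transcription factors of epithelium lay on the same side. Of 25 factors and splicing regulators, 19 were at least 2-fold higher labelled DC2.4 and 1, Rbm47, labelled 4T1. Grhl2, a factor that keeps epithelial junction genes on, was at 60.7 and 64.4 CPM against 0.0559 and 0.0397 CPM (count ratio 1353, 95% interval 374 to 11178). Esrp1, which splices transcripts to their epithelial forms, was at 111 and 113 CPM against 0.336 and 0 CPM (811-fold), and Klf5 was at 94.7 and 92.5 CPM against 0.336 and 0 CPM (676-fold). The Hippo coactivators, which many adherent cells use, were nearly silent in the libraries with myeloid markers. Yap1 was at 207 and 201 CPM against 0.224 and 0 CPM (2163-fold) and Wwtr1, the gene of TAZ, at 164 and 162 CPM against 0.392 and 0 CPM (1015-fold). Ccn2, a target of both, was at 354 and 361 CPM against 0.112 and 0 CPM (count ratio 7714, 95% interval 2135 to 63702). Luminal and basal mammary factors varied in level. Gata3 was higher labelled DC2.4, at 64.3 and 70.7 CPM against 9.68 and 8.09 CPM. Foxa1 was low in both lines, at 2.91 and 2.13 CPM against 1.06 and 0.873 CPM. Elf5 and Trp63 did not have enough counts to be tested. Rbm47, an RNA-binding protein, was at 28.7 and 28.1 CPM against 78.6 and 81.1 CPM (2.67-fold).

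Matrix and mesenchymal genes stood on the same side as the epithelial ones. Of 42 such genes, 25 were at least 2-fold higher labelled DC2.4 and 3, Zeb2, Snai2 and Acta2, labelled 4T1, with a median of 5.95. Fn1, the gene of fibronectin, was at 1903 and 1899 CPM against 0.559 and 0.555 CPM (3553-fold). Col4a1, a basement membrane collagen, was at 427 and 434 CPM against 1.68 and 0.992 CPM (353-fold). Fibrillar collagens were low: Col1a1 was at 2 and 1.27 CPM against 0.28 and 0.0793 CPM and Col3a1 at 0.343 and 0 CPM against 0.671 and 0 CPM. Vim, the filament gene often used to mark mesenchymal cells, was at 2245 and 2249 CPM against 1898 and 1911 CPM and separated the lines little (1.24-fold). Among the factors that repress Cdh1, Snai1 was higher labelled DC2.4 at 16.5 and 13.7 CPM against 0.0559 and 0 CPM (count ratio 643, 95% interval 115 to 25438) and Twist1 at 20.2 and 20.9 CPM against 0 and 0 CPM (at least 296-fold), both beside high Cdh1. Snai2 and Zeb2 were higher labelled 4T1, with Zeb2 at 41.3 and 41.3 CPM against 209 and 200 CPM (4.69-fold) and Snai2 at 0.0571 and 0 CPM against 2.96 and 2.46 CPM (count ratio 106, 95% interval 18.6 to 4204).

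The myeloid program was as broad on the other side. Of 42 leukocyte surface and adaptor genes, 37 were at least 2-fold higher labelled 4T1 and 2, Cd44 and Adgre5, labelled DC2.4, with a median log2 difference of -8.43. Laptm5, a lysosomal membrane protein of leukocytes, was at 0.114 and 0.0454 CPM against 730 and 745 CPM (count ratio 9734, 95% interval 3331 to 47205). Tyrobp, the signalling adaptor DAP12, was at 0.171 and 0 CPM against 311 and 312 CPM (count ratio 4106, 95% interval 1405 to 19912), and Csf1r, the receptor for macrophage growth factor, at 1.2 and 0.998 CPM against 518 and 525 CPM (453-fold). Itgam, the integrin chain CD11b, was at 0 and 0 CPM against 98.2 and 93.4 CPM (at least 1257-fold), while Itgax, the chain CD11c that is common on dendritic cells, was lower at 0 and 0 CPM against 24.8 and 26.3 CPM (at least 339-fold). Cd44, an adhesion receptor of both lineages, was at 417 and 412 CPM against 205 and 203 CPM (2.14-fold). Some leukocyte genes kept a clear level labelled DC2.4: Lcp1, an actin bundler, was at 117 and 111 CPM against 1610 and 1605 CPM, and Itgb2, the common leukocyte integrin chain, at 26.7 and 24.8 CPM against 278 and 276 CPM.

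Of 34 haematopoietic transcription factors, 21 were at least 2-fold higher labelled 4T1 and 2, Myb and Ikzf2, labelled DC2.4. Fli1, an ETS factor of blood cells, was at 0.0571 and 0 CPM against 84.5 and 80 CPM (count ratio 3236, 95% interval 581 to 127870), and Runx3 at 0.0571 and 0 CPM against 66.4 and 67.5 CPM (count ratio 2651, 95% interval 475 to 104746). Maf, a factor of macrophages, was high with the myeloid markers, at 0.286 and 0.0907 CPM against 112 and 110 CPM (575-fold). Irf8, a factor of dendritic cells and macrophages, was at 7.54 and 8.39 CPM against 146 and 147 CPM (17.3-fold). Zbtb46, a factor of conventional dendritic cells, was low in both at 3.09 and 2.9 CPM against 9.68 and 11.7 CPM (3.42-fold), and Batf3 at 1.03 and 1.04 CPM against 1.45 and 1.39 CPM did not pass (adjusted p = 0.238). Myb, which blood progenitors and some epithelial tumours use, was at 7.37 and 9.35 CPM against 0 and 0 CPM (at least 122-fold).

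Signalling below immune receptors followed. Of 32 immunoreceptor kinases and adaptors, 26 were at least 2-fold higher labelled 4T1 and 0 labelled DC2.4. Btk was at 0.0571 and 0 CPM against 120 and 117 CPM (count ratio 4665, 95% interval 837 to 184302) and Pik3ap1, an adaptor for PI3 kinase, at 0.0571 and 0 CPM against 229 and 235 CPM (count ratio 9203, 95% interval 1651 to 363531). Rac2, the haematopoietic Rac GTPase, was at 0.171 and 0 CPM against 314 and 310 CPM (count ratio 4104, 95% interval 1404 to 19904). Members that other cells share were present in both lines: Lyn was at 42.3 and 40.2 CPM against 166 and 161 CPM (3.77-fold), Plcg2 at 87.2 and 89.6 CPM against 334 and 337 CPM (3.6-fold) and Bcap31 at 122 and 123 CPM against 114 and 113 CPM (1.14-fold).

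Phagocyte effector genes were widely split. Of 29, 17 were at least 2-fold higher labelled 4T1 and 0 labelled DC2.4. Cybb, the membrane subunit of the phagocyte oxidase, was at 0.171 and 0 CPM against 1232 and 1208 CPM (count ratio 16049, 95% interval 5491 to 77826). Lyz2, the lysozyme of macrophages, was at 8.86 and 0 CPM against 2854 and 2859 CPM (687-fold), and its counts labelled DC2.4 were all in preparation 1. The oxidase subunit Ncf1 was at 0.0571 and 0 CPM against 151 and 153 CPM. Nos2, the inducible nitric oxide synthase, was at 0.286 and 0.59 CPM against 101 and 95.6 CPM (202-fold), and Acod1, which makes itaconate, at 0.229 and 0.0454 CPM against 101 and 104 CPM (733-fold), without an added inflammatory stimulus in the labels beyond the Mock mRNA. Neutrophil granule genes were at or near 0: Mpo had no count in the 4 libraries and Elane and Ltf were too low to be tested.

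Genes that mark subsets of dendritic cells and macrophages were mixed. Of 33 such genes, 19 were tested and 14 were too low to test. Of those tested, 14 were at least 2-fold higher labelled 4T1, beside 23.6% of all genes tested. Another 2, Fscn1 and Axl, were higher labelled DC2.4, beside 22.1%. Gpnmb, a glycoprotein of lipid-laden macrophages, was at 4.74 and 3.49 CPM against 7608 and 7638 CPM (1784-fold). Spp1, the gene of osteopontin, was at 151 and 153 CPM against 6452 and 6500 CPM (40.4-fold) and ranked 4th per length labelled 4T1. The complement gene C1qb was at 0.114 and 0 CPM against 27.4 and 24.3 CPM and Mrc1, the mannose receptor, at 0.229 and 0.227 CPM against 11.3 and 10.2 CPM. Some genes known from dendritic cells were high as well. Wdfy4, which they need for cross-presentation, was at 0.114 and 0 CPM against 197 and 208 CPM (count ratio 4023, 95% interval 1113 to 33227), the adhesion gene Cadm1 at 0.171 and 0.0454 CPM against 86.5 and 88.6 CPM (776-fold) and the lectin gene Clec10a, which macrophages share, at 0 and 0 CPM against 16 and 14.4 CPM (at least 199-fold). Xcr1, Clec9a, Cd209a, Siglech, Ccr7, Ccl17 and Ccl22 were too low to be tested. Fscn1, an actin bundler known from mature dendritic cells and from invasive carcinomas, was at 612 and 613 CPM against 0.0559 and 0.0397 CPM (count ratio 13194, 95% interval 3652 to 108956). Axl, a receptor kinase of macrophages and carcinomas, was at 1032 and 1038 CPM against 0.392 and 0.436 CPM (2569-fold).

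Fc and lectin receptors joined the myeloid side. Of 29, 19 were at least 2-fold higher labelled 4T1 and 1, Clec2d, labelled DC2.4. Clec4e, the lectin Mincle, was at 0.114 and 0 CPM against 261 and 260 CPM (count ratio 5148, 95% interval 1425 to 42517). Colec12, a scavenger lectin, was at 0.171 and 0 CPM against 264 and 267 CPM (count ratio 3500, 95% interval 1197 to 16975). Fcgr3 and Fcgr2b, activating and inhibitory IgG receptors whose sequences are close, were at 0.0571 and 0.0907 CPM against 206 and 207 CPM and 0.171 and 0 CPM against 110 and 110 CPM. Fcer1a, the chain of the IgE receptor, had no count.

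Toll-like receptors sense lipids and proteins at the surface and nucleic acids in endosomes, where the chaperone UNC93B1 brings them. Of 31 receptors, co-receptors and adaptors, 20 were at least 2-fold higher labelled 4T1 and 3, Tlr3, Tlr5 and Tirap, labelled DC2.4, with a median of -2.75. Tlr13, a receptor for bacterial ribosomal RNA, was at 0 and 0 CPM against 205 and 208 CPM (at least 2721-fold). Tlr7, for single-stranded RNA, was at 0.286 and 0.227 CPM against 143 and 135 CPM (508-fold), and Tlr9, for CpG DNA, at 0 and 0 CPM against 18.1 and 18.4 CPM (at least 241-fold). Unc93b1 was at 0.8 and 0.272 CPM against 201 and 198 CPM (370-fold). The endosomal receptors for single-stranded RNA and DNA thus came with their chaperone labelled 4T1 and were at or near 0 labelled DC2.4.

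Tlr3, the endosomal receptor for double-stranded RNA, went the other way, at 37.5 and 35.1 CPM against 1.12 and 2.38 CPM (log2 difference 4.37 ± 0.21 (SE), adjusted p = 4.52e-11). Tlr5, for flagellin, was higher labelled DC2.4 too, at 1.89 and 1.63 CPM against 0.168 and 0.238 CPM (8.69-fold). The surface receptors were present in both lines: Tlr2, for lipopeptides, was at 19.7 and 19.6 CPM against 140 and 137 CPM (6.68-fold), and Tlr4, for lipopolysaccharide, at 21.7 and 19.8 CPM against 52.2 and 52 CPM (2.39-fold). Their co-receptor Cd14 was at 5.6 and 7.85 CPM against 99.6 and 101 CPM (13.9-fold). Cd180, a relative of Tlr4, was at 0 and 0 CPM against 85.4 and 83 CPM (at least 1107-fold). Among adaptors, Myd88 was at 17.3 and 19.4 CPM against 42.8 and 42.8 CPM (2.21-fold), and Ticam2, the bridging adaptor for Tlr4, was at 0 and 0 CPM against 24 and 24.8 CPM (at least 322-fold). Ticam1, which Tlr3 needs, was higher labelled 4T1, at 5.26 and 6.67 CPM against 47.8 and 49.1 CPM (7.63-fold), opposite to Tlr3 itself.

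Cytosolic sensors and their adaptors went both ways. Of 38 genes found, 34 were tested. Of these, 11 were at least 2-fold higher labelled DC2.4 and 13 labelled 4T1, beside 22.1% and 23.6% of all genes tested. The DNA sensor Cgas was at 21.6 and 22.6 CPM against 22.1 and 22.8 CPM and did not pass (adjusted p = 0.526). Tmem173, the gene of STING that uniSTING mimics, was at 19.9 and 19.5 CPM against 39.5 and 42.3 CPM (log2 difference -0.98 ± 0.08 (SE), adjusted p = 2.89e-08). Tbk1, the kinase downstream, was at 65.2 and 67.8 CPM against 78.9 and 83.4 CPM (1.16-fold), and Irf3, its target, at 29.8 and 32 CPM against 33.1 and 36.8 CPM did not pass (adjusted p = 0.16), though it did when preparation 1 labelled 4T1 was left out (log2 difference -0.22). The core of the pathway was therefore present in both lines at baseline, with Tmem173 the member of these 4 that differed most.

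Both RNA helicase genes given here were higher labelled DC2.4. Ddx58, the gene of RIG-I, was at 34.7 and 31 CPM against 6.43 and 6.11 CPM (log2 difference 2.47 ± 0.11 (SE), adjusted p = 1.99e-11), and Ifih1, the gene of MDA5, at 21.1 and 20.3 CPM against 8.78 and 9.16 CPM (log2 difference 1.28 ± 0.11 (SE), adjusted p = 3.94e-08). Their adaptor Mavs was higher labelled 4T1, at 36 and 32.8 CPM against 77.2 and 74.8 CPM (log2 difference -1.07 ± 0.05 (SE), adjusted p = 4.23e-11). Ikbke, a kinase related to Tbk1, was at 21 and 20.6 CPM against 85.2 and 89.8 CPM (4-fold). Mavs thus stood on the other side from these helicases. Oas3, a synthetase that double-stranded RNA activates, was higher labelled 4T1, at 0.857 and 1.18 CPM against 65.9 and 64.1 CPM (59.1-fold), and Oasl2, a related gene, higher labelled DC2.4, at 11.9 and 13.6 CPM against 1.17 and 1.03 CPM (12.3-fold). The AIM2-like genes on chromosome 1, which share sequence and are uncertain for that reason, were split. Aim2 was at 0 and 0 CPM against 50.4 and 53 CPM (at least 684-fold) and Ifi207 at 0.343 and 0.681 CPM against 14.8 and 17.7 CPM, whereas Ifi204 was at 55.1 and 53.5 CPM against 4.47 and 3.33 CPM (14.9-fold) and Ifi203 at 48 and 47.6 CPM against 10.5 and 9.52 CPM (5.05-fold).

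Inflammasome genes were mostly higher in the libraries with myeloid markers. Of 32 genes, 20 were at least 2-fold higher labelled 4T1 and 4, Nlrx1, Casp12, Gsdme and Mlkl, labelled DC2.4. Nlrp3, a sensor of membrane damage, was at 0.286 and 0.363 CPM against 46.8 and 44.3 CPM (129-fold). Pycard, the adaptor ASC, was at 0.457 and 0.227 CPM against 30.3 and 32.3 CPM (88.9-fold), and Casp1, the protease that matures IL-1, at 3.37 and 2.18 CPM against 46 and 45 CPM (15.9-fold). The Naip genes, sensors of bacterial secretion systems with close copies, were higher labelled 4T1, with Naip2 at 0.914 and 0.363 CPM against 66.7 and 65.8 CPM (103-fold). P2rx7, the ATP channel that can trigger Nlrp3, was at 0.743 and 1.45 CPM against 148 and 148 CPM (123-fold). Il1b, their substrate, was too low to be tested in these cells. Casp12 was higher labelled DC2.4 at 16.6 and 12 CPM against 0.168 and 0 CPM (count ratio 202, 95% interval 68.6 to 981), as was Mlkl, the executor of necroptosis, at 80.7 and 84.8 CPM against 29.7 and 30.1 CPM (2.91-fold), while Ripk3, its activator, was too low to be tested.

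**Figure D4:**
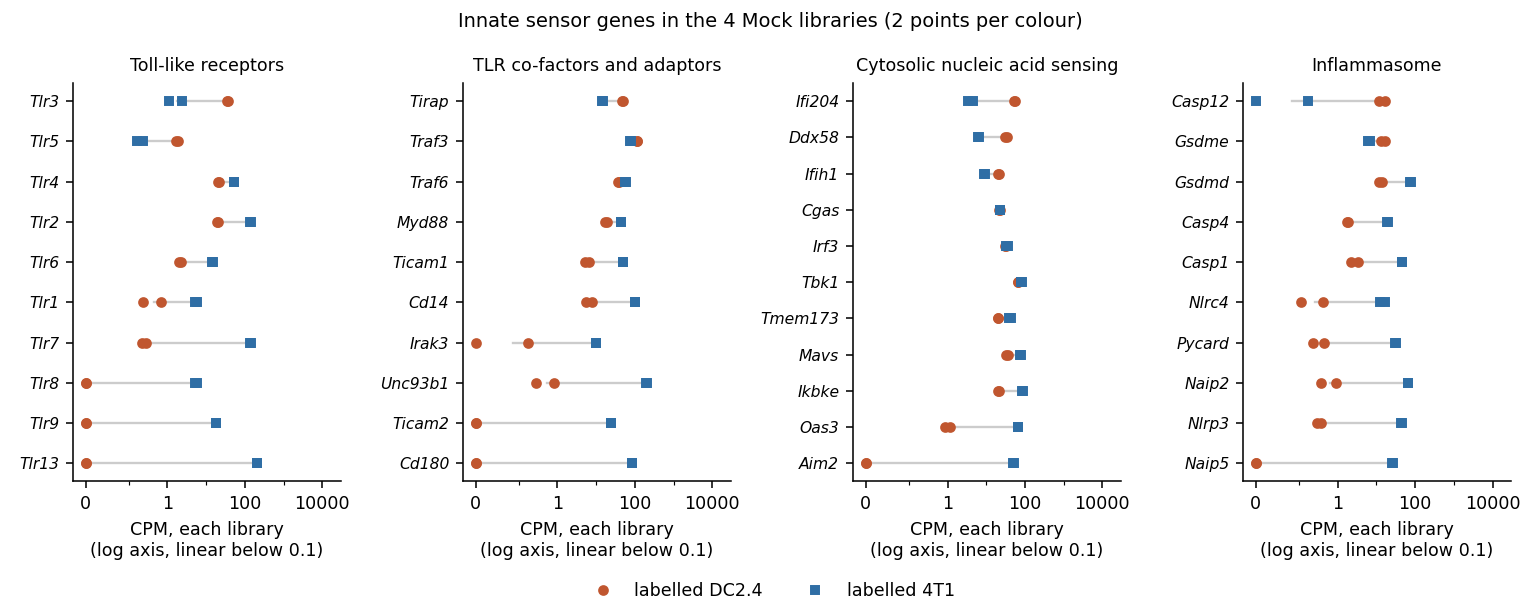
CPM of innate sensor genes in each of the 4 Mock libraries, on a log axis that is linear below 0.1; orange circles are the 2 libraries labelled DC2.4, blue squares the 2 labelled 4T1, and grey lines join the group means. Tlr3, Tlr5, Ddx58, Ifih1, Ifi204 and Casp12 lie to the right in orange, Cgas, Irf3 and Tbk1 nearly coincide, and most other genes lie to the right in blue.

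Of 29 interferon receptor and signalling genes, 27 were tested. Of these, 10 were at least 2-fold higher labelled 4T1, beside 23.6% of all genes tested. Another 5, among them Ifnlr1, Irf1, Socs1 and Socs2, were higher labelled DC2.4, beside 22.1%. Ifnar1 was at 48.9 and 51.4 CPM against 119 and 119 CPM (log2 difference -1.17 ± 0.04 (SE), adjusted p = 9.25e-13) and Ifnar2 at 18.9 and 19.8 CPM against 66.6 and 68.7 CPM (log2 difference -1.73 ± 0.05 (SE), adjusted p = 1.81e-13). Tyk2, the kinase on Ifnar1, was at 16.1 and 19.9 CPM against 75.1 and 74 CPM (3.89-fold), and Stat5a at 11.6 and 10.8 CPM against 57.1 and 55.1 CPM (4.77-fold). Ifnlr1, the receptor for type III interferon that epithelial cells use, was at 8.63 and 8.39 CPM against 0.0559 and 0 CPM (count ratio 366, 95% interval 65.3 to 14505). Irf1 was higher labelled DC2.4, at 71 and 74 CPM against 23.5 and 21.7 CPM (3.39-fold). Of 54 interferon-stimulated genes, 48 were tested, with a median of 0.66. Of these, 20 were at least 2-fold higher labelled DC2.4, above the background share of 22.1%. Another 9 were higher labelled 4T1, below the share of 23.6%. Isg20 was at 29.1 and 30.9 CPM against 0.559 and 0.516 CPM (58.6-fold) and Isg15, the ubiquitin-like modifier, at 10.3 and 11.4 CPM against 1.4 and 1.07 CPM (9.39-fold). Higher labelled 4T1 were Ly6e at 25.6 and 21.3 CPM against 291 and 281 CPM (11.7-fold) and Slfn2 at 2.23 and 1.18 CPM against 63.4 and 62.7 CPM (36.2-fold).

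Antigen presentation on class I was present in both. Of 26 genes found, 6 were at least 2-fold higher in each direction, close to the background shares. B2m, the light chain, was at 337 and 342 CPM against 801 and 789 CPM (2.22-fold) and Tap1, the peptide transporter, at 8.74 and 10.6 CPM against 69.2 and 67.1 CPM (6.61-fold). The heavy chain genes H2-K1 and H2-D1, which have close copies and are uncertain, were at 139 and 136 CPM against 674 and 669 CPM and 299 and 305 CPM against 714 and 688 CPM. The class II chain genes H2-Aa and H2-Ab1 were low in both lines. H2-Aa was at 0.457 and 0 CPM against 0.671 and 0 CPM and H2-Ab1 at 0.857 and 0.998 CPM against 0.503 and 0 CPM, neither of which passed (H2-Ab1 did with the preparation as a block, at 2.38), and Ciita, the master regulator, was too low to be tested. Of the 17 genes of the class II list, 12 were tested. Of these, 6 were at least 2-fold higher labelled 4T1, beside 23.6% of all genes tested. Another 1, Rfxap, was higher labelled DC2.4, beside 22.1%. The 17 summed to 96.7 and 92.9 CPM against 1013 and 985 CPM. Cd74, the invariant chain, was at 11.9 and 10.6 CPM against 77.2 and 73.5 CPM (6.39-fold), H2-DMb1, the peptide editor, at 0 and 0 CPM against 35.6 and 37.7 CPM (at least 485-fold), and Ctss, the cathepsin that trims the invariant chain, at 0.343 and 0 CPM against 631 and 613 CPM (3740-fold). The libraries with myeloid markers thus held Cd74, H2-DMb1 and Ctss with almost no H2-Aa and H2-Ab1.

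Of 31 costimulation and checkpoint genes, 26 were tested. They leaned to the myeloid-marker libraries, 15 at least 2-fold against 6, beside 23.6% and 22.1% of all genes tested. Cd86 was at 0 and 0 CPM against 28.5 and 29.5 CPM (at least 383-fold) and Cd80 at 0.114 and 0 CPM against 14.2 and 13.5 CPM (count ratio 273, 95% interval 75.1 to 2256), both ligands that activate T cells. Cd274, the gene of PD-L1, was at 1.37 and 1.72 CPM against 26.6 and 29.5 CPM (17-fold), and Vsir, the checkpoint VISTA, at 1.54 and 1.27 CPM against 174 and 166 CPM (115-fold). The pair of the signal that blocks phagocytosis was split across the lines: Sirpa, the receptor, was at 21.1 and 19.3 CPM against 883 and 871 CPM (41.3-fold), and Cd47, its ligand, was higher labelled DC2.4, at 159 and 154 CPM against 56.3 and 56.8 CPM (2.92-fold). Cd24a, another such ligand, was at 423 and 429 CPM against 38.4 and 38 CPM (11.7-fold).

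Secreted factors went both ways. Of 57 chemokines, cytokines and growth factors, 42 were tested, and the 57 summed to 1878 and 1854 CPM against 1577 and 1571 CPM. Of those tested, 22 were at least 2-fold higher labelled DC2.4 and 13 labelled 4T1, beside 22.1% and 23.6% of all genes tested. Labelled DC2.4 were the neutrophil factors Csf3, at 25.6 and 26.1 CPM against 0.0559 and 0 CPM (count ratio 1115, 95% interval 200 to 44076), and Cxcl1, at 22.1 and 19.6 CPM against 0 and 0 CPM (at least 298-fold). Lif was at 62.3 and 60.6 CPM against 0.224 and 0.159 CPM (337-fold), and Ptgs2, which makes prostaglandins, at 287 and 277 CPM against 0.839 and 0.674 CPM (396-fold). Labelled 4T1 were the monocyte and T cell chemokines Ccl3, at 0.171 and 0 CPM against 159 and 164 CPM (count ratio 2139, 95% interval 732 to 10375), and Ccl4, at 0.114 and 0 CPM against 51 and 51.3 CPM (count ratio 1012, 95% interval 280 to 8359), together with Tnf, at 0.171 and 0.0907 CPM against 42.2 and 41.8 CPM (301-fold), and Ccl9, at 0.571 and 0.0907 CPM against 98.4 and 96.4 CPM (299-fold). Csf1 was present in both lines, at 262 and 258 CPM against 170 and 167 CPM (1.62-fold), as was Mif, at 576 and 579 CPM against 603 and 604 CPM (not passed, adjusted p = 0.594; its sign changed with the scaling). Its receptor Csf1r was high labelled 4T1 alone, so that ligand and receptor were found together there. Of 46 receptors, 35 were tested. Of these, 16 were at least 2-fold higher labelled 4T1, beside 23.6% of all genes tested, and 9 labelled DC2.4, near the 22.1%. Csf2rb, the shared chain for GM-CSF, was at 0.171 and 0 CPM against 125 and 129 CPM (count ratio 1676, 95% interval 573 to 8129), and Ackr3, a decoy receptor for CXCL12, at 60.7 and 58.9 CPM against 0 and 0 CPM (at least 857-fold).

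The list of 48 growth factor receptors also held surface ligands such as Efnb2 and Jag2. Of the 48, 27 were at least 2-fold higher labelled DC2.4 and 3, Mertk, Nrp1 and Jag2, labelled 4T1, with a median of 5.02. Met, the receptor of hepatocyte growth factor, was at 282 and 276 CPM against 0.336 and 0 CPM (2016-fold). Fgfr2 was at 47.9 and 50.7 CPM against 0.0559 and 0 CPM (count ratio 2132, 95% interval 382 to 84235) and Ddr2, a collagen receptor, at 228 and 230 CPM against 0.28 and 0.0397 CPM (1658-fold). Erbb2 was at 71.4 and 73.9 CPM against 0.112 and 0.0793 CPM (772-fold), well above Egfr at 4.46 and 3.27 CPM against 0.28 and 0 CPM. Per length, Axl was at 630, Met at 111, Erbb2 at 42.8 and Egfr at 1.05 TPM labelled DC2.4. Nrp1, a co-receptor for VEGF and semaphorins, was higher labelled 4T1, at 27.3 and 29 CPM against 169 and 170 CPM (5.7-fold).

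Integrin alpha chains went both ways. Itga3, which binds laminin, was at 1848 and 1863 CPM against 0.336 and 0.119 CPM (9076-fold), Itga2, which binds collagen, at 182 and 184 CPM against 0.0559 and 0 CPM (count ratio 7905, 95% interval 1418 to 312280), and Itgb4, of hemidesmosomes, at 122 and 121 CPM against 0.783 and 0.754 CPM (166-fold). Itga4, which binds VCAM1, was higher labelled 4T1, at 0.114 and 0 CPM against 187 and 181 CPM (count ratio 3628, 95% interval 1004 to 29962). The common chain Itgb1 was high in both, at 1569 and 1579 CPM against 499 and 488 CPM (3.36-fold). Of 44 integrins, syndecans and tetraspanins, 39 were tested. Of these, 18 were at least 2-fold higher labelled DC2.4 and 13 labelled 4T1, beside 22.1% and 23.6% of all genes tested. The vesicle tetraspanins Cd63 and Cd81 were near equal, Cd63 at 475 and 459 CPM against 399 and 400 CPM (1.23-fold) and Cd81 at 100 and 95.9 CPM against 95.2 and 95.3 CPM (1.08-fold, a call lost with library totals alone), whereas Cd9 was higher labelled 4T1, at 302 and 292 CPM against 679 and 679 CPM (2.17-fold). In the complement and coagulation list 30 of 36 were tested. Of these, 16 were at least 2-fold higher labelled 4T1 and 9 labelled DC2.4, beside 23.6% and 22.1% of all genes tested. C3ar1, the receptor of C3a, was at 0 and 0 CPM against 76.9 and 68.4 CPM (at least 948-fold). Plau, the gene of urokinase, was at 155 and 155 CPM against 865 and 845 CPM (5.22-fold). The urokinase receptor gene Plaur was higher labelled DC2.4, at 98.6 and 97.3 CPM against 40.9 and 46.2 CPM (2.35-fold). Of 54 Wnt, Hippo and TGF-beta genes, 42 were tested. Of these, 25 were at least 2-fold higher labelled DC2.4, beside 22.1% of all genes tested. Another 3 (Wnt6, Fzd7 and Axin2) were higher labelled 4T1, beside 23.6%. Wnt7b was at 191 and 206 CPM against 0.0559 and 0.278 CPM (1092-fold) and Inhba, the chain of activin A, at 81.2 and 77.9 CPM against 0.0559 and 0 CPM (count ratio 3421, 95% interval 614 to 135156).

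Among the metabolic lists, the median lay farthest from 0 for the lysosome, where macromolecules that a cell takes up are broken down. Of 49 lysosomal genes, 42 were at least 2-fold higher labelled 4T1 and 1, Ctsh, labelled DC2.4, with a median of -2.65. The 49 summed to 4298 and 4265 CPM labelled DC2.4 against 33675 and 33677 CPM labelled 4T1. Ctsk, a cathepsin of osteoclasts and macrophages, was at 0.0571 and 0 CPM against 582 and 572 CPM (count ratio 22768, 95% interval 4086 to 899332). Ctsb and Ctsd, cathepsins that most cells hold, were at 268 and 267 CPM against 3894 and 3928 CPM (13.9-fold) and 112 and 110 CPM against 2072 and 2045 CPM (17.7-fold). Psap, the precursor of the saposins, was at 363 and 354 CPM against 3526 and 3492 CPM (9.29-fold), and Hexa, a chain of hexosaminidase, at 4.91 and 4.85 CPM against 566 and 576 CPM (111-fold). The proton pump followed, with Atp6v1a at 134 and 135 CPM against 1007 and 1014 CPM (7.1-fold). Among the factors that control lysosomal genes, Mitf was at 6.4 and 6.67 CPM against 77.7 and 75.7 CPM (11.1-fold) and Tfeb at 4.34 and 4.72 CPM against 29.3 and 27.2 CPM (5.88-fold). Ctsh was at 100 and 95.7 CPM against 24.6 and 24 CPM (4.26-fold).

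Iron storage was a second large difference. Ferritin, which keeps iron in a safe form, is made of heavy and light chains. Fth1, the heavy chain, was at 1355 and 1352 CPM against 14757 and 14729 CPM (10.3-fold), and Ftl1, the light chain, at 1037 and 1035 CPM against 6654 and 6760 CPM (6.14-fold). Per length they ranked 3rd and 2nd labelled 4T1. Hmox1, which frees iron from haem, was at 30.8 and 28.8 CPM against 300 and 296 CPM (9.52-fold), and Slc40a1, the iron exporter, at 3.26 and 3.09 CPM against 88.5 and 85 CPM (26-fold). Tfrc, which brings iron in, was higher labelled DC2.4, at 540 and 520 CPM against 146 and 148 CPM (3.8-fold). Storage, release and export were thus higher labelled 4T1 and uptake higher labelled DC2.4. Of 47 redox and iron genes, 42 were tested. Of these, 15 were at least 2-fold higher labelled 4T1, beside 23.6% of all genes tested. Another 5, Nqo1, Gsta4, Gstp1, Aldh3a1 and Tfrc, were higher labelled DC2.4, beside 22.1%. Gstm1, a glutathione transferase, was at 1.89 and 0.907 CPM against 278 and 275 CPM (195-fold), and Gstp1, another, at 165 and 132 CPM against 37.8 and 37.7 CPM (4.12-fold). The redox genes Nfe2l2 and Nqo1 pointed in opposite directions, at 81.4 and 79.6 CPM against 230 and 235 CPM (2.74-fold) and 7.94 and 7.8 CPM against 0.224 and 0.198 CPM (38.5-fold), although Nqo1 is a known target of NRF2, the product of Nfe2l2.

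Glycolysis differed in isoenzymes rather than as a whole. Of 40 genes, 38 were tested. Of these, 8 were at least 2-fold higher labelled DC2.4 and 13 labelled 4T1, near and above the background shares. The list summed to 13665 and 13621 CPM against 15935 and 16142 CPM. Pkm, the last kinase of the pathway, was at 3324 and 3307 CPM against 2439 and 2420 CPM (1.44-fold), and Ldha, which makes lactate, at 1916 and 1897 CPM against 1506 and 1505 CPM (1.34-fold). Hexokinase 1 was in both lines, with Hk1 at 158 and 157 CPM against 216 and 210 CPM (1.28-fold), but Hk3, the leukocyte form, was at 0.0571 and 0 CPM against 340 and 345 CPM (count ratio 13558, 95% interval 2433 to 535547). Lactate exporters were split: Slc16a1 was at 295 and 290 CPM against 224 and 225 CPM (1.37-fold) and Slc16a3 at 0.114 and 0.181 CPM against 205 and 210 CPM (1249-fold). Aldoc was higher labelled 4T1, at 20.3 and 19.3 CPM against 190 and 186 CPM (9.03-fold), and Eno3 higher labelled DC2.4, at 206 and 211 CPM against 24.7 and 22.8 CPM (9.29-fold). Car12, a carbonic anhydrase of hypoxic tumours, was at 56 and 61.2 CPM against 0 and 0 CPM (at least 846-fold). Gapdh has many close copies and is uncertain under unique mapping.

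**Figure D5:**
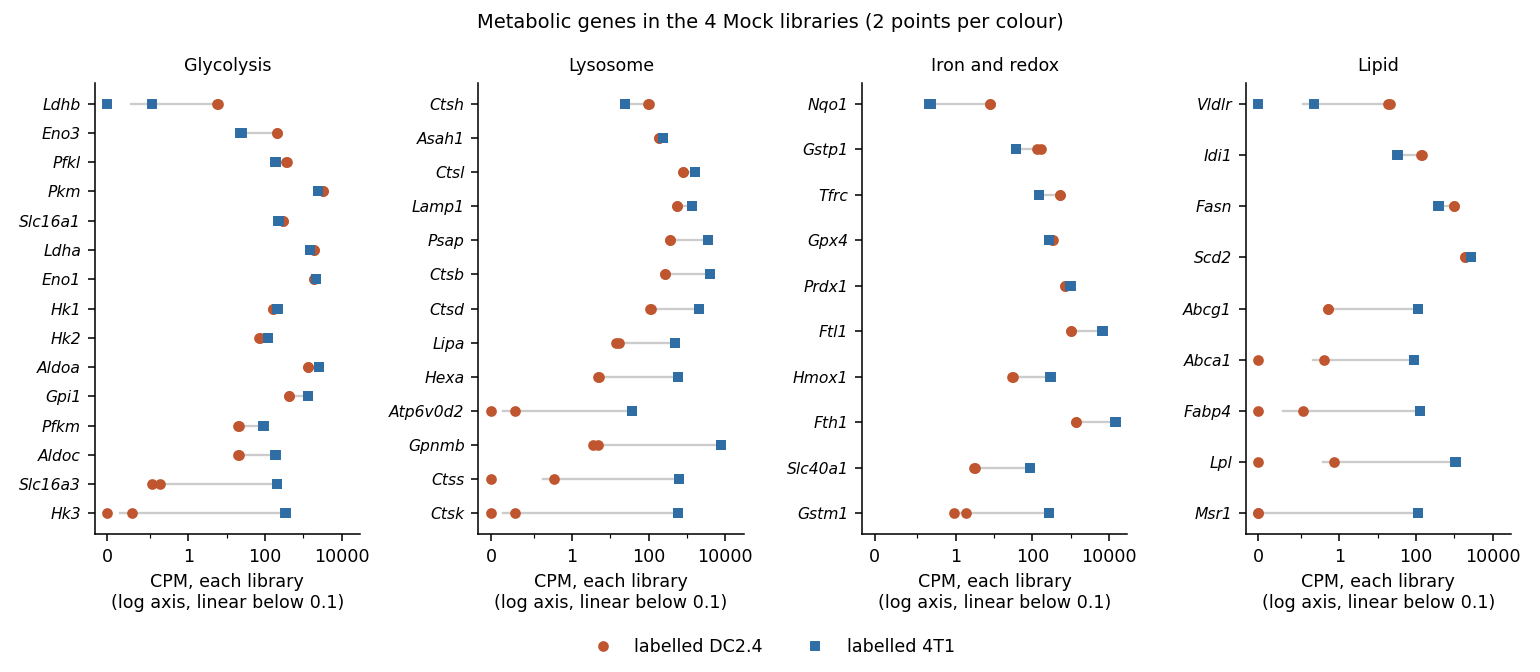
CPM of metabolic genes in each of the 4 Mock libraries, on a log axis that is linear below 0.1; orange circles are the 2 libraries labelled DC2.4, blue squares the 2 labelled 4T1, and grey lines join the group means. Lysosomal, ferritin and lipid efflux genes lie to the right in blue, Tfrc, Gstp1 and Fasn to the right in orange, and the main glycolytic enzymes Pkm, Ldha and Eno1 nearly coincide.

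Lipid genes were read as 2 lists. Of 43 cholesterol and fatty acid synthesis genes, 12 were at least 2-fold higher labelled DC2.4 and 3, Mvd and Acsl1 among them, labelled 4T1, with a median of 0.43. The first count is near the 22.1% of all genes. Fasn, the fatty acid synthase, was at 983 and 979 CPM against 382 and 392 CPM (2.67-fold). Of 35 uptake, efflux and storage genes, 22 were at least 2-fold higher labelled 4T1 and 1, Vldlr, labelled DC2.4, with a median of -1.55. Lpl, the lipoprotein lipase, was at 0.743 and 0 CPM against 1076 and 1055 CPM (3019-fold), Abca1, the cholesterol exporter, at 0.4 and 0 CPM against 88.5 and 86.9 CPM (454-fold), and Msr1, a scavenger receptor, at 0 and 0 CPM against 115 and 114 CPM (at least 1508-fold). Fabp4 was at 0.114 and 0 CPM against 124 and 124 CPM (count ratio 2452, 95% interval 679 to 20255).

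Core respiration genes leaned to the 4T1 label, mostly by less than 2-fold. Of 48 genes of the citric acid cycle and oxidative phosphorylation, 47 were tested. Of these, 0 were at least 2-fold higher labelled DC2.4 and 7 labelled 4T1, both below the background. At any size, 34 were higher labelled 4T1, beside 40.5% of all genes tested, and 9 labelled DC2.4, beside 42.4%. The 48 summed to 11117 and 11108 CPM against 14690 and 14796 CPM. Atp5b, a subunit of ATP synthase, was at 2358 and 2322 CPM against 2210 and 2241 CPM (1.11-fold), and Sdha, of complex II, at 191 and 197 CPM against 514 and 523 CPM (2.53-fold). Pcx, which refills the cycle from pyruvate, was the widest, at 4.91 and 3.77 CPM against 80.2 and 82.2 CPM (18-fold). Acly, which takes citrate out for lipid synthesis, was higher labelled DC2.4, at 580 and 574 CPM against 310 and 304 CPM (1.98-fold). In the pentose, serine and glutamine list, 10 of 43 were at least 2-fold higher labelled DC2.4 and 9 labelled 4T1. Both were near the 22.1% and 23.6% of all genes tested. Psat1, an enzyme of serine synthesis, was at 1202 and 1198 CPM against 614 and 604 CPM (2.08-fold). Odc1, the rate-limiting enzyme of polyamine synthesis and a known Myc target, was at 941 and 949 CPM against 208 and 208 CPM (4.79-fold). The membrane carriers Slc7a2, for arginine, and Slc1a4, for serine and alanine, were at 0.4 and 0 CPM against 73.4 and 71.7 CPM (376-fold) and 79.6 and 81.4 CPM against 10.4 and 10.7 CPM (8.03-fold).

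In the cell cycle list, 40 of 43 genes were tested. Of these, 11 were at least 2-fold higher labelled DC2.4, near the 22.1% of all genes tested. Another 5 (Ccnd3, Ccne1, Cdkn1a, Rb1 and E2f2) were higher labelled 4T1, below the 23.6%. Ccnd1, the cyclin of early G1, was at 1337 and 1354 CPM against 197 and 200 CPM (7.16-fold). Mki67, a marker of dividing cells, was nearly equal at 307 and 300 CPM against 355 and 349 CPM (1.1-fold). Cdkn1a, the inhibitor p21, was higher labelled 4T1, at 12.5 and 11 CPM against 300 and 299 CPM (24.3-fold). Trp53, the gene of p53, was at 61.4 and 67.9 CPM against 134 and 146 CPM (log2 difference -1.04 ± 0.06 (SE), adjusted p = 3.5e-10). In the list of 23 oncogenes, p53 and INK4 genes and p53 targets, 9 of the 19 tested were at least 2-fold higher labelled 4T1. Another 4, Myc, Mycl, Hras and Pik3ca, were higher labelled DC2.4. This list stands beside 23.6% and 22.1% of all genes tested. Among its members known as targets of p53, which were not a list of their own, Mdm2 was at 74.1 and 78.8 CPM against 198 and 200 CPM (2.47-fold), Ccng1 at 68.5 and 69.9 CPM against 191 and 190 CPM (2.61-fold), Zmat3 at 36.8 and 40.6 CPM against 120 and 120 CPM (2.93-fold) and Trp53inp1 at 2.17 and 2.4 CPM against 79.3 and 79.3 CPM (32.6-fold), while Eda2r was too low to be tested. 4T1 carcinoma cells are known to have lost p53 function. Cdkn2a, which holds INK4A and ARF, had 0 counts in all 4 libraries.

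Genes used to make DC2.4 were read as a further check of the labels, with the limit that a retroviral copy may not be counted on the mouse gene. Myc was at 397 and 392 CPM against 1.62 and 2.02 CPM (log2 difference 7.80 ± 0.07 (SE), adjusted p = 3.54e-19), high labelled DC2.4. Csf2, the gene of GM-CSF, had 4 counts in sum labelled DC2.4 and 0 labelled 4T1. Xist, the RNA of the silenced X chromosome, was at 0.286 and 0 CPM against 350 and 358 CPM (2538-fold), and the 4 Y-linked genes looked for (Ddx3y, Kdm5d, Uty and Eif2s3y) had at most 5 counts in any library and were not tested.

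Ribosomal protein genes, which every cell needs, served as a reference. Of 49, 1, Rpl22l1, was at least 2-fold higher labelled DC2.4 and 3 labelled 4T1, with sums of 46316 and 46468 CPM against 44151 and 44693 CPM. The 3 higher labelled 4T1 were Rps2, Rpl30 and Rps18, which have many close copies and are uncertain. Among the most abundant transcripts per length, Lgals1, the gene of galectin-1, was at 15438 and 15371 TPM labelled DC2.4 against 1455 and 1392 TPM labelled 4T1, and S100a6, a calcium-binding protein, at 4912 and 4962 against 634 and 605 TPM. On the other side Spp1 stood at 281 and 284 TPM against 12381 and 12493 TPM, Lyz2 at 20.6 and 0 against 6858 and 6882 TPM, and Cd68, a lysosomal glycoprotein of macrophages, at 20.5 and 15.7 against 3111 and 3189 TPM.

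Of 34 lymphoid, mast, erythroid, endothelial, fibroblast and organ markers, 12 tested members did not pass and 19 were too low to be tested. They summed to 132 and 6.99 CPM labelled DC2.4 against 164 and 42 CPM labelled 4T1, higher in preparation 1 of both labels, the preparation with counts of Ins2 and Sftpc. Pdgfra was higher labelled DC2.4, at 7.2 and 6.4 CPM against 0 and 0.0793 CPM (count ratio 145, 95% interval 39.9 to 1208), Vwf, of endothelium and platelets, higher labelled 4T1, at 0.628 and 0 CPM against 46.1 and 40.1 CPM (143-fold), and Cd4, at 0 and 0 CPM against 0.615 and 0.555 CPM (at least 7.65-fold).

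The same contrast was available in 4 libraries that the selection did not use, those given uniSTING mRNA under the 2 labels. There 12472 genes passed (83.9%), with 1232 at least 16-fold higher labelled DC2.4 (8.29%) and 979 labelled 4T1 (6.59%). Of the 2168 genes past 16-fold in the Mock libraries, 1932 were past it in the same direction there, which is 1932 of the 2211 past it there, and 4 had the opposite sign, Csn3 and the histone genes Hist1h2bm, Hist1h4n and Hist1h3a, all of them at most 1.66 CPM. Side by side, the log2 differences in Mock and uniSTING libraries were 11.27 and 11.53 for Epcam, -10.47 and -9.41 for Ptprc, and 4.37 and 4.51 for Tlr3. For Tmem173 they were -0.98 and -0.92, for Ddx58 2.47 and 3.04, and for Myc 7.80 and 9.06. They carry the same preparation numbers, and whether they came from other cultures is not stated.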

How the data were processed

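Libraries were made with a NEBNext Ultra kit from column-purified RNA, per the labels' protocols. The authors deposited whole-number counts per gene: paired-end reads aligned with HISAT2 to GRCm39, per the submitters' processing notes, and uniquely mapped reads counted over exons with featureCounts 2.0.1 on Ensembl release 103 without a strand option, per the file headers. Unique mapping lowers genes with close copies. No source used here describes trimming. Of 53647 genes, 52093 matched a symbol.

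Counts were tested with edgeR 4.0.16 (R 4.3.3): TMM factors, filterByExpr (14863 genes), 1 mean per group over all 12 libraries, the quasi-likelihood F test, and Benjamini-Hochberg adjustment over all genes at 0.05. CPM uses deposited totals; TPM uses the files' exon lengths. A fold is the fitted one, except at the lowest counts. Genes at 0 in a group are set against 3 counts over that group ("at least"). Genes with 1 to 3 counts there get a count ratio with its exact 95% interval. It is the ratio of summed counts, each divided by the summed library totals of its group. Both the bound and the interval cover counting error only. The common biological coefficient of variation was 3.05%. On simulated counts (14560 genes) 79 of 100 changes of 1.5-fold and 89 of 100 of 3-fold were recovered, and 17 of 185 calls were false (9.19%).

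The members, the 36 gene lists and the tests were chosen with earlier results of these data known. Genes were named as the 4 markers and the 12 largest fitted differences each way, without a bound, among genes of at least 50 CPM. From each list came up to 8 members with the largest fitted differences and the members of at least 50 CPM in both groups. Lists of 5 or fewer were named in full, with 19 fixed genes. Of the 226 genes given with values, 45 were chosen after their values were seen, as were the members listed by name alone. Some genes that the rule names are not reported here. Alternatives were DESeq2 1.42.0, 3 other scalings, 2 filters, limma-voom (limma 3.58.1), a test against a 2-fold minimum, the preparation as a block, a fit on the 4 libraries alone, and libraries left out. Promoters came from RefSeq's table. Figures were drawn with matplotlib 3.10.9.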

Additional observations from a re-analysis of the deposited data

How the results depend on the processing

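Of the 6 counts of genes given for the 2 Mock groups (higher under each label at any size, at 2-fold and at 16-fold), those at 2-fold and 16-fold stayed within 1.5 times of the values given under all 15 alternatives, and those at any size under all but 1. When the test was made against a 2-fold minimum, 2837 genes were higher under the DC2.4 label and 3067 under the 4T1 label, since that test asks for more than any difference. Leaving out 1 of the 4 libraries at a time, with the lone library assumed to vary like the other groups, gave 5980 to 6094 genes higher under the DC2.4 label and 5754 to 6108 under the 4T1 label, 3211 to 3291 and 3455 to 3640 at 2-fold, and 1209 to 1277 and 971 to 1053 at 16-fold. Without the preparation 1 libraries of both groups, 1267 and 1055 genes were past 16-fold. With the preparation number as a block, 6352 and 6056 genes passed. Deviations from the group means correlated between same-numbered Mock libraries at 0.53 over 7814 genes of at least 10 CPM, but the labels do not tie a number to a shared culture or day, so the numbers may mark only a preparation. Of 226 genes given with values, 1 changed direction with a call: Mif, at a log2 difference of 0.01, passed at -0.06 with library totals alone and at 0.06 with upper-quartile factors. Of the 226, 209 kept their side of the threshold against the 2-fold minimum; the 17 that did not were Foxa1, at a log2 difference of 1.46, and 16 genes between -1.07 (Mavs) and 0.98 (Acly). The calls of Cd81, Irf3 and H2-Ab1 changed under at least 3 alternatives each. The cause was not tested. Under the filter of 1 CPM and the fit on 4 libraries, 4 and 2 of the genes had no value. Scaling moved the median of all genes by at most 0.07 on the log2 scale. Depth limits what can be said below 0.119 to 0.171 CPM, and with 2 libraries a group the spread rests on all 12.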

Other observations

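Genes on in one line and at 0 counts in the other were counted at a higher bar. At 50 CPM or more, 33 genes were found labelled DC2.4 with 0 counts in both libraries labelled 4T1, and 41 the reverse. Genes present in both lines also differed: of 8798 genes with at least 5 CPM in both groups, 2466 differed at least 2-fold (28%).

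The 4 genes past 16-fold in the Mock libraries with the opposite sign in the uniSTING libraries were all weakly counted. Csn3, the gene of kappa-casein, had 0.743 and 0.408 CPM labelled DC2.4 against 0 and 0.0397 CPM labelled 4T1, with log2 differences of 4.36 in Mock and -0.79 in uniSTING libraries. The replication-dependent histone gene Hist1h4n had 1.66 and 1.13 CPM against 0.0559 and 0.0397 CPM, with 4.79 and -0.86. Whether the Mock and uniSTING differences themselves differ was not tested.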
